A study of Mus musculus with 36 samples.

Results

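Smgc-high cells of the mouse submandibular gland were taken as the Drop-seq barcodes in which Smgc made up 5% or more of all UMIs (unique molecular identifiers, 1 per counted RNA molecule) and Muc19 under 2%, among barcodes with at least 100 genes and under 15% mitochondrial UMIs. This rule held for 789 of 23346 barcodes (3.38%), in 18 of 26 glands. The 2 genes were therefore the basis of the choice, and their values are descriptions only. The study compared salivary glands of K14-Cre; β-catenin GOF; Bmpr1a LOF mice, called double mutants, with glands of control mice at postnatal days 40 and 90 (P40 and P90), in both sexes. In the double mutants a keratin 14-driven Cre recombinase stabilised β-catenin and removed the BMP receptor gene Bmpr1a; control mice also carried K14-Cre, and both carried a Rosa26 EYFP reporter. Since Cre acts in cells with a K14-expressing history, a luminal cell need not have recombined. Each Drop-seq library held the live, sorted and methanol-fixed cells of 1 gland, from 3 control female, 3 control male, 4 double-mutant female and 3 double-mutant male glands at P40, and from 3, 3, 4 and 3 glands in the same order at P90. CITE-seq, which adds antibody tags to the RNA, was made from 4 glands at P70 (2 control, 2 double mutant). Bulk RNA-seq was made from 1 female gland of each genotype, the control at P70 and the double mutant at P100.

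Smgc encodes a secreted protein of the salivary gland and is an alternative transcript of the mucin gene Muc19, with which it shares its start. In the mouse submandibular gland it is made by the terminal tubule cells of the newborn, and in adults mainly by intercalated duct cells of females. Intercalated ducts are the narrow tubes between the acini, which make most of the saliva, and the larger striated and granular ducts.

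On mm10, Smgc lies at chr15:91838265-91861438 on the plus strand, inside Muc19 at chr15:91838326-91934555. The exons of both genes overlap over 95 bases, 2.79% of the 3410 exonic bases of Smgc, and the exonic bases that belong to Muc19 alone start at position 91870471. UMIs near the 3′ ends of the 2 transcripts therefore fall on different exons. The RefSeq transcript of Smgc starts at position 91838328. The 250 bases before that start, from RefSeq on GRCm38.p6 at chr15:91838078-91838327, plus strand, are shown because they are the sequence in front of the RNA that defines these cells, with a TATAAA box in capitals. The gene annotation used for the coordinates above starts Smgc 63 bases before the RefSeq start, so the end of the window, box included, lies inside the gene there.

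Smgc promoter: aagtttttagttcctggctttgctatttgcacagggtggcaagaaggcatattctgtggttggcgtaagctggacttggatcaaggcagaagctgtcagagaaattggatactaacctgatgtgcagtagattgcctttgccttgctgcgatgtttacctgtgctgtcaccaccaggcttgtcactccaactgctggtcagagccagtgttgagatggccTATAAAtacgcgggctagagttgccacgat

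The box starts 30 bases before the start site. TATAAA, searched on both strands of the 300 bases from 250 before to 50 after each start, occurred in 14.2% of 27025 RefSeq promoters. Of the 17 promoters that could be matched to Smgc or to the leading genes described below, 3 held it (Smgc, Ggta1 and A630073D07Rik). The letters TTCNNNGAA, the palindrome bound by STAT factors, occurred in 8.47% of all promoters and in those of Gdpd1 and Dcdc2a, and are not in the window of Smgc.

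The Drop-seq glands held between 650301 and 6994504 UMIs, in 606 to 1209 barcodes past the limits. Xist and Y-linked counts went against the sex label in 2 libraries. The double-mutant gland labelled male at P40, replicate 1, held 591 Xist UMIs and 1 Y-linked UMI, and the double-mutant gland labelled female at P90, replicate 5, held 0 and 194. Both are named by their labels here, and results that rest on them are given with and without them. 14 barcode sequences occurred in 2 Drop-seq libraries, 1 of them a Smgc-high cell.

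Within the Smgc-high cells Smgc was the dominant RNA. Of 346557 Smgc UMIs in the Drop-seq data, 321867 (92.9%) were in the 789 cells, and Smgc made up 27.2% of their UMIs in the 13 glands with 10 or more of them. The Smgc share had its peak between 30 and 40% of UMIs, with 238 cells, and 17 cells had 50% or more. The values ran on without a gap across the edge of the rule: 30 cells lay between 5 and 6% (median 5.47%, 75 Smgc UMIs) and 33 barcodes between 4 and 5% (median 4.34%, 63 Smgc UMIs). A further 5 barcodes reached 5% Smgc but were left out by the limit on Muc19, and 120 Smgc-high cells had at least 1 Muc19 UMI. Depth was similar to that of other cells, with a median of 1195 UMIs and 533 genes against 1555 UMIs and 485 genes.

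**Figure D1:**
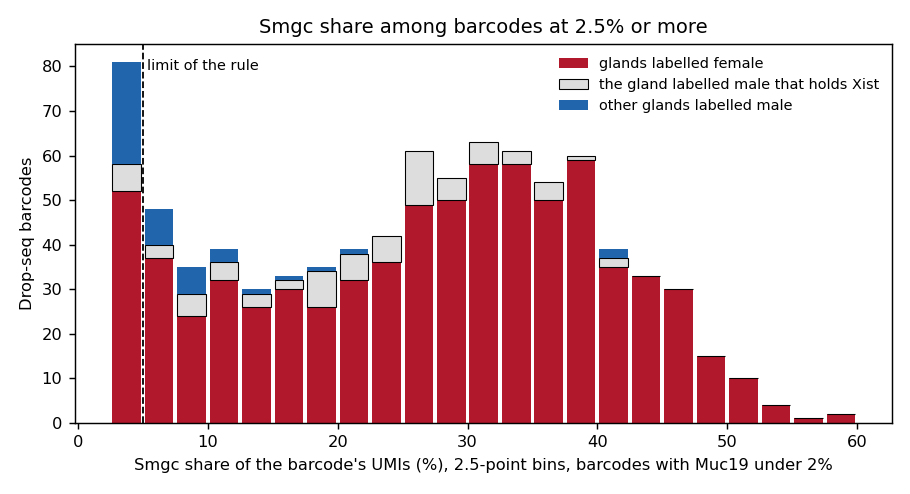
Number of Drop-seq barcodes (y axis) by the share of their UMIs that came from Smgc (x axis, 2.5-point bins from 2.5%), for barcodes with Muc19 under 2%; the dashed line marks the 5% limit of the rule. Most barcodes above the limit came from glands labelled female or from the gland labelled male that held Xist (grey), and the other male glands (blue) mostly lay under 10%.

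Smgc UMIs also appeared at low level in other cells of the same glands. In those 13 glands 35.1% of endothelial barcodes (exact 95% interval 30.05 to 40.3%, median 784 UMIs) and 35.5% of immune barcodes (32.4 to 38.7%, median 731.5 UMIs) had a Smgc UMI, types that should lack it, and so did 41.3% of acinar barcodes (39.8 to 42.8%, median 3743 UMIs). In these types Smgc was 0.0601%, 0.149% and 0.0290% of UMIs, in each case under 1% of the level in Smgc-high cells. Muc19-high barcodes stood between, with Smgc at 1.07% of UMIs. The 5% limit is far above these shares. Intervals cover counting error only.

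The label "intercalated duct" was checked against a list of 8 markers. Apart from Smgc, only Gstt1, a theta-class glutathione S-transferase, stood out, with a median log2 difference of 3.98 to other barcodes of the same gland. Kit, Gfra3 and Elf5 had a median of 0 UMIs per 10000 in Smgc-high cells, and the list without Smgc summed to 159 (17.8 to 291) against 110 (14.7 to 300) in other barcodes. Wfdc18, which the paper describes as specific to excretory and intercalated ducts of control tissue, went the other way. Its log2 difference was -0.65, and it was higher in 5 of 13 glands. Wfdc12 had a difference of 0.97, under the median of 1.29 over detected genes, and was higher in 10 of 13. Smgc chose the cells, so it is no separate support for the name. Beyond Smgc the name therefore rests on Gstt1 alone, and the cells are called Smgc-high. They were epithelial and luminal: the luminal list summed to 51.6 UMIs per 10000 (35.0 to 77.2 over 13 glands) against 16.1 (7.82 to 32.3), so the ranges did not overlap, with keratins Krt18 at 26 and Krt8 at 8.88 and the adhesion molecule Epcam at 7.05. Not all members of the list rose. Krt19 was at 0, Krt7 had 0.186 against 0.935 and was higher in 1 of 13 glands, and Cldn4 was higher in 3 of 13. The log2 difference of Epcam, 1.06, was below the median of 1.29 over detected genes that is described below. Basal, myoepithelial, endothelial, fibroblast and T or NK cell lists each had a median sum under 0.3 per 10000, the immune list summed to 2.42 against 12.2, and the Duox duct genes were at 0. These levels exclude Smgc and Muc19 from the total.

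Genes that lead in Smgc-high cells, described with no test because the cells were chosen on the same libraries, were ranked by the median log2 difference to other barcodes over the 13 glands, with a pseudocount of 0.1 UMI per 10000. Over the 1343 genes detected in at least 10% of Smgc-high cells the median difference was 1.29, since a few very abundant saliva genes fill much of the other cells' total, and values are read against it; it was 0.19 when the 20 most abundant genes of the other barcodes were left out, and 18 of the 20 leading genes were then the same. Prlr, the prolactin receptor, stood at 5.38 UMIs per 10000 in Smgc-high cells and 0.280 in others, a log2 difference of 4.01, and was detected in 34.1% of the cells. Adh1, an alcohol dehydrogenase, had 4.15 against 0.169 (3.94) and was higher in 13 of 13 glands. Phyh, a peroxisomal enzyme of branched fatty acid breakdown, had 12.7 against 0.986 (3.56), also in 13 of 13. Being higher in every gland was common on this scale, and held for 527 of the 1343 genes.

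The other leading genes included a liver-type secretory pair, the fibrinogen gamma chain gene Fgg (4.16) and haptoglobin Hp (3.68). They also included the conjugating enzymes Gstt1 (3.98) and Gstt3 (3.63), the carbonic anhydrase-related Car8 (3.60), the secreted protease Tll1 (3.58), the death receptor Tnfrsf21 (3.41), the galactosyltransferase Ggta1 (3.17) and the surface proteoglycan Sdc4 (3.12). Dcdc2a (3.61), Gdpd1 (3.54), Ddx26b (3.44), Sval2 (3.41), A630073D07Rik (3.31), Asrgl1 (3.17), Fam161a (3.15) and the clone-named RP24-89H23.2 (5.48) completed the 20. In the CITE-seq glands, which took no part in the ranking, the median difference over the 20 was 3.42 against 1.01 over all detected genes. Of the 20, 4 were not higher in all 4 glands.

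Other populations were chosen by rule as well. Acinar cells had an acinar gene list, Car6 and Pip among it, at 5% or more of UMIs and above the other secretory lists. Dcpp-high cells had the Dcpp genes at 5% or more, and Muc19-high cells had Muc19 at 2% or more. In Muc19-high, Dcpp-high and acinar cells the medians of all 20 genes were lower. A630073D07Rik had a median of 31.5 UMIs per 10000 in Smgc-high cells, 4.03 in acinar cells, 0.253 in Muc19-high and 0.127 in Dcpp-high cells. Adh1, Phyh and Sdc4 were next highest in Muc19-high cells, at 1.23, 2.53 and 4.74. Genes of the rules were high in the cells they chose, so the next values are descriptions only. Car6, a secreted carbonic anhydrase, was 706 in acinar cells and 30.1 in Smgc-high cells. The demilune gene Dcpp1 was 2146 in Dcpp-high cells and 12.1 in Smgc-high cells. Pip, prolactin-induced protein, had 396 in Smgc-high cells (10.8 to 1455 over glands) and 433 in acinar cells (161 to 859).

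**Figure D2:**
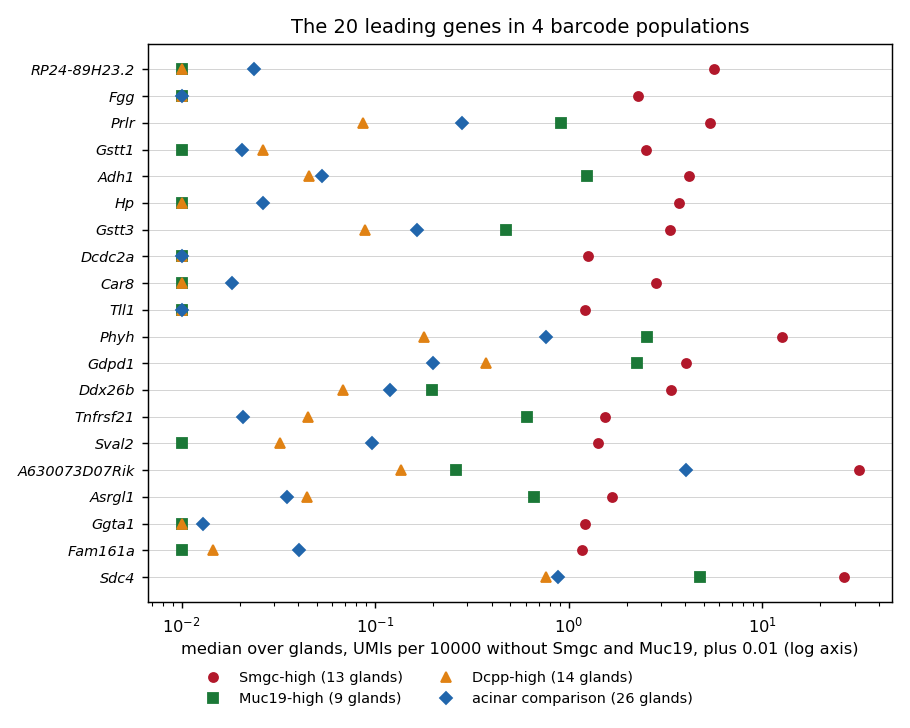
Median level over glands (x axis, UMIs per 10000 without Smgc and Muc19, plus 0.01, log scale) of the 20 leading genes (y axis) in Smgc-high, Muc19-high, Dcpp-high and acinar barcodes; the number of glands with each population is in the legend. All 20 medians are highest in Smgc-high cells, as they were chosen to be against the rest of the gland, and Muc19-high cells come nearest, relative to that level, for Gdpd1, Asrgl1 and Tnfrsf21.

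Functional lists showed the following, again as levels with no test. Immediate early genes, which cells switch on quickly after a stimulus, were detected for 13 of 13 members and summed to 305 UMIs per 10000 (197 to 437) against 80.2 (44.2 to 127), ranges that did not overlap. Their median log2 difference was 1.77, and 9 of the 13 exceeded the median difference of 1.29 over detected genes. Btg2 was 55.6 against 8.33 and Fos 53.0 against 15.6. Muc19-high cells also held 42.0 of Fos, and acinar cells 6.04. Among hormone receptors Prlr led, the growth hormone receptor Ghr had 1.33 against 0.263, and the oestrogen receptors Esr1 and Esr2 had 0 UMIs in the 768 cells of the 13 glands. Among epithelial transcription factors Sox9, a regulator of gland bud and duct progenitors, had 11.9 against 1.75 (higher in 13 of 13 glands), and Elf3 2.42 against 0.492. Of transport genes the chloride importer Slc12a2 had 17.0 against 3.17 and the water channel Aqp5 5.43 against 1.25, each in 13 of 13. Muc19-high cells held more Aqp5 than Smgc-high cells, with a median of 9.36, and acinar cells held 1.90. Genes of protein secretion and the unfolded protein response were near the median gene: 18 of 24 were detected in 10% of cells, and 4 of those exceeded the median difference of 1.29. The secretoglobins summed to 197 against 1398. Proliferation genes summed to 0.728 against 0.743, and the Wnt target and inhibitor list to 0.437 against 0.437 with Lgr5, Tcf7, Dkk2 and Dkk4 at 0. On this scale, near-equal sums lie below the median difference of 1.29.

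Not all cells that met the rule looked alike. The 697 cells of glands labelled female held 142 UMIs of the 20 leading genes per 10000, and the 69 cells of the male-labelled gland with Xist held 135, against 8.45 in other barcodes of the female glands. The 10 cells of the control male P40 gland, replicate 3, held 18.4, with a median Smgc share of 6.87%. Their Muc19 level was 158 per 10000 against 2.94 in cells of female glands, Wfdc12 was 278 against 46.1, the immunoglobulin receptor Pigr 23.9 against 1.04, and Prlr and A630073D07Rik were at 0. The 2 cells of the control male P90 gland, replicate 3, were alike in this, with 5.39 UMIs of the leading genes and 91.5 of Muc19. The 9 cells of the double-mutant male P40 gland, replicate 5, had 71.7 of the leading genes and 11.7 of Muc19. Without the control male P40 gland, 17 of 20 leading genes were higher in 12 of 12 glands. With it, 7 of the 20 were higher in 13 of 13, as were 527 of all 1343 detected genes.

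Smgc-high cells were mostly found in glands labelled female. They made up 2.65, 3.49 and 6.43% of barcodes in control females at P40 and 10.8, 14.3 and 16.1% at P90, against 0, 0 and 0.872% in control males at P40 and 0, 0 and 0.312% at P90. In control glands the 2 sexes did not overlap (8.95% ± 5.63, SD, n = 6, against 0.197% ± 0.353, n = 6; exact two-sided permutation of the 924 arrangements, p = 0.00216, adjusted 0.0103 over the 5 comparisons of shares). A count of 0 in the male glands allows a share of up to 0.316 to 0.432%, taken as 3 counts of the total. Within library batches, the number after B in the library titles, 12 arrangements remained, the smallest p they could give, and the exact permutation p was 0.0833.

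In double mutants the shares were 2.68, 3.89, 4.22 and 6.59% in females at P40 and 0, 0, 0.935 and 2.64% at P90. In males they were 0, 1.26 and 6.67% at P40 and 0, 0.0907 and 0.165% at P90. The 6.67% was the gland labelled male that held Xist, and 1 of the zeros in P90 females was the gland with Y-linked counts. Taken by label the sexes did not differ beyond their spread (2.62% ± 2.28, n = 8, against 1.37% ± 2.64, n = 6; exact permutation p = 0.385, adjusted 0.445). Without both libraries the difference was 2.69 percentage points (2.99% ± 2.19, n = 7, against 0.304% ± 0.540, n = 5; exact permutation p = 0.0341). Over all 26 glands by label, the share was 5.33% ± 5.06 in 14 female and 0.781% ± 1.90 in 12 male glands (permutation test with 100000 resamples, p = 0.00413, adjusted 0.0103), and the difference rose from 4.55 to 5.50 points without both libraries (p = 0.00029). In a permutation within batches the p was 0.0274.

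**Figure D3:**
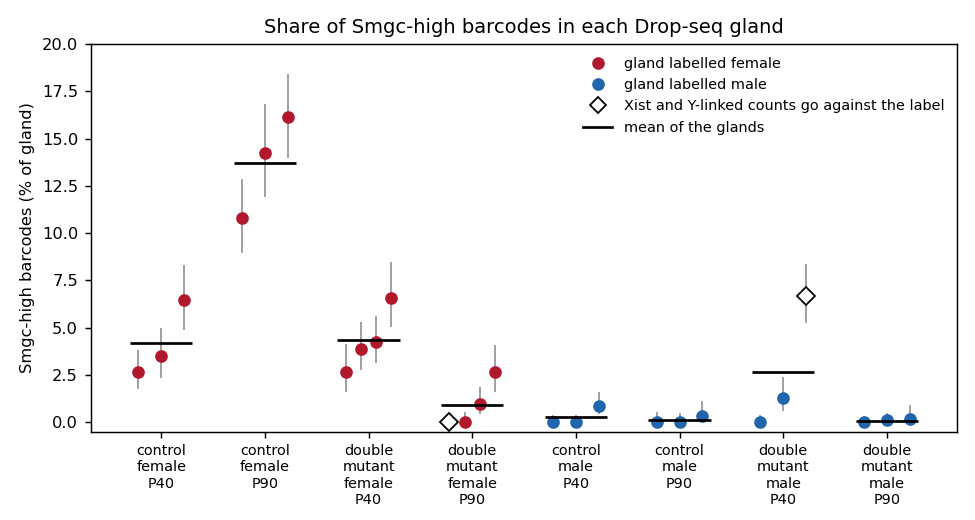
Smgc-high barcodes as a percentage of the barcodes of each Drop-seq gland (y axis), by genotype, sex label and stage (x axis); each point is 1 gland with its exact 95% binomial interval, the line is the mean of the group. Control females at P90 (10.8 to 16.1%) lie above every other group, and open diamonds mark the 2 libraries that go against their sex label.

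Among female glands the share was lower in double mutants (2.62% ± 2.28, n = 8) than in controls (8.95% ± 5.63, n = 6), a difference of -6.34 points (exact permutation p = 0.0130, adjusted 0.0216), and of -5.96 points without the gland with Y-linked counts (p = 0.0262, exact permutation). This difference came from the P90 glands. At P40 the means were 4.35% and 4.19%, 0.155 points apart (exact permutation p = 0.857), and the single values overlapped. At P90 double mutants had 0.892% ± 1.24 (n = 4) and controls 13.7% ± 2.70 (n = 3), with no overlap (difference -12.8 points, exact permutation p = 0.0286, the smallest that 35 arrangements allow). Without the gland with Y-linked counts it was -12.5 points (exact permutation p = 0.1, again the smallest possible). The share is of all barcodes, and the number of these cells in a whole gland was not measured. The paper reports stromal and immune-related cells as significantly more abundant in double mutants. Depth also differed, with medians of 408, 478.5, 579 and 2780.5 UMIs in other barcodes of P90 double-mutant females and 870, 1091 and 1144 in P90 control females. The genotype difference at P90 was more negative than that at P40, by -12.98 points (exact test permuting genotype within stage, p = 0.0122), and by -12.7 without the gland with Y-linked counts (p = 0.0429, exact permutation). This permutation assumes no genotype difference at either stage, so these p-values do not test the change between stages alone.

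Stage alone showed no difference over the 14 female glands, 6.39% ± 7.09 at P90 and 4.28% ± 1.63 at P40 (exact permutation p = 0.445, adjusted 0.445), as the 2 genotypes moved in opposite directions. The share at P90 minus that at P40 was 9.53 points in controls (exact permutation p = 0.1, the smallest possible) and -3.45 in double mutants (p = 0.0286, the smallest possible for an exact permutation), or -3.16 without the gland with Y-linked counts (p = 0.0571, exact permutation). Among controls, batch and stage cannot be told apart, since all P90 females came from batches 7 and 9 and all P40 females from batches 12 and 14. In batch 9, which holds both genotypes, the control female gland had 14.3%, the double-mutant female gland 0.935% and the male gland 0. Permuted within batches, the genotype difference had an exact p of 0.417, but 12 arrangements cannot give a p under 0.0833, so this test could not pass.

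EYFP, the Cre reporter, had few UMIs. In the 13 glands a UMI was seen in 18.1% of control Smgc-high cells (94 of 520, exact 95% interval 14.9 to 21.7%, median depth 1237.5 UMIs) and in 5.24% of those of double mutants (13 of 248, 2.82 to 8.80%, 1174.5 UMIs). Endothelial barcodes, which should lack K14-Cre activity, had 18.2% (12.01 to 25.8%, 736.5 UMIs) in controls and 7.87% (4.65 to 12.3%, 831.5 UMIs) in double mutants, and immune barcodes 13.4 and 10.6%. The share in Smgc-high cells was therefore not above that of these types by more than counting error in either genotype, and is read as background. Cells were pooled over glands, so the intervals leave out the spread between glands. Depth differed too, with a median of 677 UMIs in immune barcodes of controls and 802 in those of double mutants. Bmpr1a UMIs were too few to compare, in 26 and 9 Smgc-high cells.

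To compare genotypes within the cells, UMIs were summed over the Smgc-high cells of each female gland with 10 or more of them, 6 control and 5 double-mutant glands, 4 of the latter at P40. Of 1045 genes tested 9 passed an adjusted p of 0.05 (0.861%; edgeR quasi-likelihood test with stage as covariate), 7 higher in double mutants (0.67%) and 2 lower (0.191%), while 105 had an unadjusted p under 0.05. Pip was the most abundant gene called. It had 84.8, 107, 199, 200, 313 and 396 UMIs per 10000 in control glands and 496, 725, 1119, 1235 and 1455 in double mutants, so the groups did not overlap (log2 difference 2.43, SE 0.55, edgeR adjusted p = 0.0378). In other barcodes of the same glands Pip was 189 to 338 in controls and 107 to 316 in double mutants, and in acinar cells the log2 difference was 0.49 (adjusted p = 0.581). A separate fit with gland as block tested whether the genotype change differed between Smgc-high and acinar cells. It had no term for a stage change that differed between them, and it called Pip (1.68, SE 0.47, edgeR adjusted p = 0.0432). Pip is on the gene list that chose the acinar cells, so its level there depended on that choice. How far this shaped the comparison was not tested.

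A630073D07Rik, 1 of the 20 leading genes, rose from 13.2 to 31.5 per 10000 in control glands to 44.0 to 189 in double mutants (log2 difference 2.51, SE 0.41, edgeR adjusted p = 0.00313). Gm12888 was 0 to 1.79 in controls and 3.32 to 21.1 in double mutants (5.05, SE 0.65, adjusted p = 3.73e-04). It was also higher in acinar cells of double mutants (4.34, adjusted p = 2.62e-04). The protease inhibitor gene Wfdc12 had 47.1 to 68.2 in P40 controls, 5.24 to 11.8 in P90 controls and 93 to 127 in double mutants (2.03, SE 0.44, adjusted p = 0.0290). Ranges of these 3 genes did not overlap between genotypes. They were named for large called changes, so this is no separate support, and its share over all tested genes was not counted. Their changes were not called as different from those in acinar cells (edgeR adjusted p = 0.456 for A630073D07Rik, 0.649 for Gm12888 and 0.115 for Wfdc12).

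The other 3 genes that rose were interferon-inducible or membrane genes of low count. Ifi27l2a rose from 0.544 to 2.36 in controls to 4.48 to 16.2 in double mutants (log2 difference 3.09), Ly6e from 0.829 to 6.42 to 6.48 to 18.9 (1.67), and Ifitm3 from 0.728 to 4.89 to 5.13 to 11.5 (1.61; adjusted p = 0.0378). In acinar cells Ifitm3 also rose (1.78, adjusted p = 0.00977). None of the 3 had a change that was called as different from that in acinar cells. Of a separate list of 12 interferon-stimulated genes, which holds none of these 3, 1 was abundant enough to be tested and it was not called.

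Tesc, which encodes the calcium-binding protein tescalcin, fell. It had 3.05 to 7.05 UMIs per 10000 in control glands (293 UMIs in all) and 0 to 1.62 in double mutants (10 UMIs), with a log2 difference of -2.94 (SE 0.49, edgeR adjusted p = 0.00313). The acinar change was -0.71 (adjusted p = 0.293), and the difference between both populations was called (-2.64, SE 0.46, adjusted p = 5.30e-06). Col11a1, a fibrillar collagen chain gene, had 0.833 to 4.77 in controls (189 UMIs) and 0 to 0.489 in double mutants (4 UMIs), with a log2 difference of -3.19 (SE 0.60, adjusted p = 0.00973). In other barcodes of these glands it was at most 0.0539.

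By list, 1 of 3 intercalated duct genes tested was called (Wfdc12) and 1 of 5 acinar genes (Pip), where 0.67% of all genes were called higher, and none of 13 immediate early genes (median log2 difference 0.28), 16 secretion and unfolded protein response genes (0.19), 6 luminal genes (0.26) or 5 epithelial transcription factors (-0.12), against a median of -0.03 over all 1045 genes. Without the only double-mutant P90 gland 3 genes were called. With batch as a covariate 2 genes passed, and with 20 or more cells required per gland 0 passed in edgeR, with 89 at an unadjusted p under 0.05; Tesc then had -2.66 and -3.13 and an adjusted p of 0.0726 and 0.0691.

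Between P40 and P90 (7 and 4 female glands, genotype as covariate) 48 genes were called (4.59%), 39 higher at P90 (3.73%) and 9 lower (0.861%). Of the 39, 31 carried only clone, Gm or pseudogene names. 29 of these were also tested in acinar cells, where all 29 were higher at P90 and called, with a median log2 difference of 2.49 in Smgc-high and 2.64 in acinar cells; examples are RP24-491O6.2 (6.43), Rpl32-ps (4.42) and Rps10-ps1 (1.90), whose reads cannot be told apart with certainty from those of their parent genes. These genes thus differed by stage in both cell types, and batch and stage cannot be told apart among controls.

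Of the genes with names, Fgg was a leading gene of the cells. It had 1.47, 3.89 and 4.05 UMIs per 10000 in control glands at P40, 10.2, 15.3 and 16.6 in control glands at P90, 0.557 to 1.96 in P40 double mutants and 9.71 in the P90 double mutant. No P90 gland overlapped a P40 gland (log2 difference 2.48, SE 0.36, edgeR adjusted p = 3.86e-04), and other barcodes held at most 0.154. Insig1, a brake on sterol synthesis, rose from 0.338 to 1.47 to 1.62 to 5.10 (2.15, adjusted p = 0.0156). Its change was called as different from that in acinar cells (difference 1.85, SE 0.43, adjusted p = 0.00550).

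The kallikrein genes Klk1b26 (4.05) and Klk1b5 (3.08), granular duct products, were also higher at P90. Klk1b26 had 0 to 0.833 at P40 and 0.810 to 8.43 at P90 in Smgc-high cells, against 0.0985 to 8.76 and 6.21 to 60.7 in other barcodes, and rose in acinar cells too (3.05, adjusted p = 0.00695). Kallikrein genes are near-identical copies, so their counts are uncertain. 5530400C23Rik (5.61) had 467 UMIs at P90 and 2 at P40, all in control glands. Lars2 (2.30) and Jund (1.76) also rose, and Jund did so in acinar cells (1.82).

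The 9 genes lower at P90 included Dcpp3, a demilune gene (log2 difference -5.60), and BC048546 (-6.23). Both also reached higher levels in other barcodes at P40, up to 843 and 43.7 per 10000, than at P90, up to 118 and 9.18. Dcpp3 had 0 to 33.1 in Smgc-high cells at P40 and 0.204 to 0.810 at P90. Cish, an inhibitor of cytokine receptor and STAT signalling, had 1.22 to 2.77 at P40 and 0.259 to 0.810 at P90 (-2.35, SE 0.51, adjusted p = 0.0113), with no overlap, and 0.226 to 1.01 in other barcodes. The imprinted genes Peg3 (-2.59) and Kcnq1ot1 (-1.93), the topoisomerase gene Top1 (-1.59), Ly6e (-1.56) and Ifitm3 (-1.45) completed the list with Nupr1, a stress-induced gene. Over 22 settings the change of Ifitm3 ranged from -2.21 to -0.07 and that of Nupr1 from -1.95 to -0.87, and each passed in 12. Nupr1 had 7.66 to 30.5 at P40 and 4.05 to 10.1 at P90 (-1.60, adjusted p = 0.0175), and its change differed from that in acinar cells (-1.71, SE 0.31, adjusted p = 1.71e-05), as did that of Ly6e (-1.62, adjusted p = 0.00201).

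**Figure D4:**
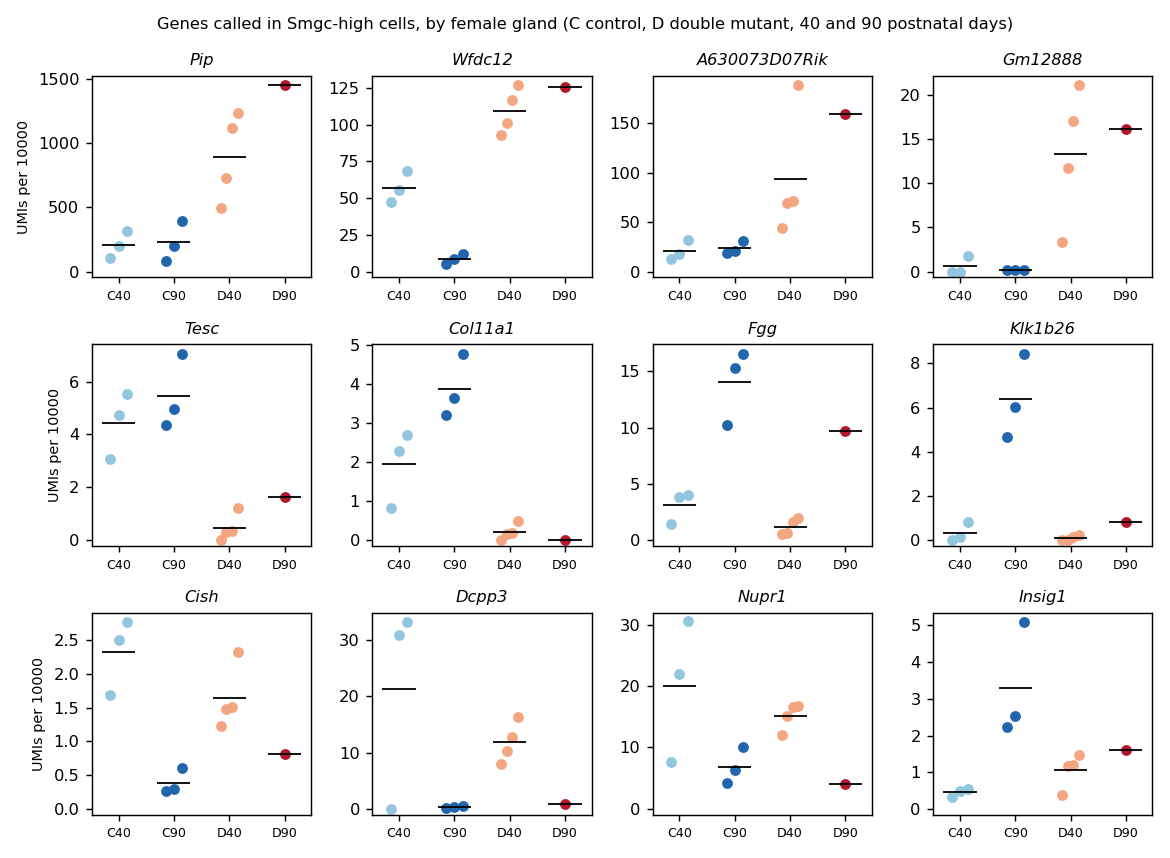
UMIs per 10000, without Smgc and Muc19, of 12 genes called in Smgc-high cells (y axis, from 0, 1 panel a gene) in 11 female glands grouped as control P40 (C40), control P90 (C90), double mutant P40 (D40) and double mutant P90 (D90, 1 gland); points are glands and lines group means. Pip, A630073D07Rik and Gm12888 separate the genotypes upwards and Tesc and Col11a1 downwards, while Fgg and Cish separate the stages.

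By list, 1 of 3 Dcpp genes was called lower at P90 (median log2 difference -3.39; 0.861% of all genes), 1 of 1 granular duct genes and 1 of 13 immediate early genes higher (Klk1b26 and Jund; 3.73% of all genes), and none of 16 secretion genes (-0.25) or 5 transcription factors (-0.26), against a median of -0.06 over all genes. In control glands alone 49 genes were called. In double-mutant glands alone 2 were, in a fit whose P90 arm is 1 gland of 19 cells and whose spread comes from the P40 glands, so the 2 counts cannot be compared. Without double-mutant P40 replicate 2, 86 were called.

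Between the sexes, 11 female glands were set against the 2 glands labelled male with 10 or more Smgc-high cells, 1 of which held Xist. Of 1366 genes 2 were called (0.146%). Gm11942 was higher in female glands (0.0732% of genes; log2 difference 3.57), and the endoplasmic reticulum chaperone gene Hspa5 was higher in the male-labelled ones (0.0732%; -1.71, edgeR adjusted p = 0.0414 for both). Without the library that held Xist 38 genes were called, all of which rest on the 10 cells of 1 control male gland that stood apart above, so a sex difference within the cells cannot be told apart from that gland.

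Testing whether a change differed between Smgc-high and acinar cells of the same 11 female glands gave 45 of 5998 genes for genotype (0.75%; 7 more positive, 0.117%, and 38 more negative, 0.634%, in Smgc-high cells) and 27 for stage (0.45%; 22, 0.367%, and 5, 0.0834%). Smgc-high sums alone had 1045 genes past the filter on low counts, so most of the 5998 were tested only because acinar sums were included. Some genotype calls rest on few Smgc-high UMIs, such as Timp3 with 24 and Pglyrp1 with 31. Each fit left out the interaction with the other factor, so its values need not equal the difference of the separate changes. With both interactions in 1 model, 5 and 28 genes were called for genotype and 8 and 4 for stage. The split depended on the scaling, with 20 and 35 genes for genotype and 14 and 10 for stage under DESeq2 size factors. Acinar barcodes were deeper (median 3743 against 1209 UMIs), and the DESeq2 test called 11 and 7 genes. Of these, 2 (Pip and Tesc) and 3 (Insig1, Nupr1 and Ly6e) were also called within Smgc-high cells. In the DESeq2 test the differences of Pip, Tesc and Nupr1 passed, and those of Insig1 (adjusted p = 0.145) and Ly6e (0.0714) did not. For Pip the acinar side is limited by the choice of acinar cells, as its list includes Pip. Among the others were genes of plasma cells called in both tests, Igkc with 6.67 UMIs per 10000 in Smgc-high and 0.781 in acinar cells, Igha with 4.06 and 0.485, and Jchain with 1.66 and 0.197. The part of antibody RNA from other cells in these differences was not tested.

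By the same rule 69 of 2647 CITE-seq barcodes were Smgc-high. They made up 3.11% (exact 95% interval 1.98 to 4.63%) of the control gland labelled female, 2.92% (1.82 to 4.44%) of the control gland labelled male, and 2.40% (1.38 to 3.86%) and 1.73% (0.793 to 3.25%) of the double-mutant glands labelled female. All 4 intervals overlapped. Each of these libraries held both Xist and Y-linked UMIs, mostly in separate barcodes, so the sex labels of this set could not be read from the RNA, and no sex comparison was made. The Smgc-high cells themselves held 15 Xist and 1 Y-linked UMIs in the control gland labelled female, 9 and 0 in the control gland labelled male, and 4 and 0 in each double-mutant gland.

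At the surface, EpCAM was the antibody tag that stood out. Its median share of tags was 3.32, 4.92, 3.01 and 1.54% in the Smgc-high cells of the 4 glands (control female-labelled, control male-labelled, double mutant 1 and 2) against 1.98, 1.52, 0.479 and 0.429% in other barcodes, ratios of 1.68 to 6.29. CD24, an epithelial surface glycoprotein, had ratios of 1.48 to 2.70, CD133 of 1.51 to 1.95 and CD97 of 1.44 to 2.58. Among 4 isotype controls, which measure unspecific binding, 3 were also higher in 4 of 4 glands, with ratios of 1.33 to 1.99 (mIgG2b), 1.19 to 1.74 (AH_IgG) and 1.04 to 1.99 (mIgG1). Of the 61 antibodies, EpCAM alone had a median ratio (3.41) above the highest isotype ratio, though it lay below that in the control gland labelled female. Smgc-high cells also held fewer tags, with medians of 427 to 703 against 830 to 1557. The tag for Kit, a duct marker, had ratios of 0.967 to 1.90 and cannot be told apart from the isotypes. Smgc-high cells numbered 9 to 23 per gland.

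**Figure D5:**
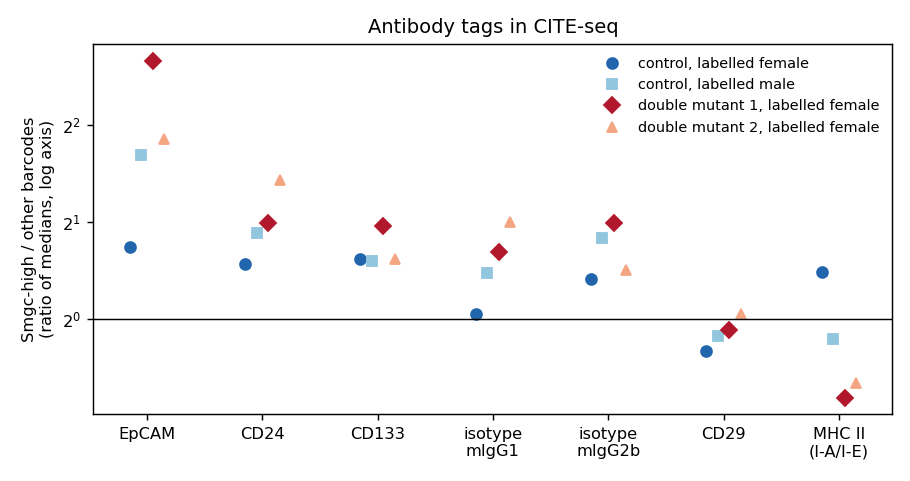
Ratio (y axis, log scale) of the median share of antibody tags in Smgc-high cells to that in other barcodes, for 7 of 61 antibodies (x axis) in the 4 CITE-seq glands; the line is a ratio of 1. EpCAM lies highest (1.68 to 6.29), and the isotype controls mIgG1 and mIgG2b also lie above 1.

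In bulk RNA-seq Smgc had 63564 reads in the control gland at P70 (1842 CPM, counts scaled to library size, of 34515744 reads in all) and 5110 in the double-mutant gland at P100 (147 CPM, 34729551 reads). Fewer Smgc-high cells and less Smgc RNA per cell cannot be told apart there, the stages differ, and there is 1 library each, so no test was made. Of the 20 leading genes 12 were lower in the double-mutant library and 8 higher. CPM were 11.8 in the control and 4.61 in the double mutant for Car8, 7.21 and 0.921 for Tll1, 31.6 and 45.1 for Prlr, and 16.4 and 27.7 for Adh1, genes chosen after their values were seen. Pip was at 14133 and 21689 CPM.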

How the data were processed

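The deposited Drop-seq and CITE-seq RNA tables give, for every gene in every barcode, a count of UMIs, made by the authors with Drop-seq tools and STAR on mm10 with Cre and EYFP added; the antibody tables hold tag counts per barcode, and the bulk tables are read counts from featureCounts per the file headers. Members and gene lists were chosen with earlier results of these data known. Genes named are those with the largest changes past the threshold (up to 10 per direction, at most 2 with clone names), the 20 leading genes, and up to 4 members of each list in order of level.

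Barcodes were chosen by the rule of the report, and the gland was the replicate. Shares were compared by two-sided permutation of gland values. Gene counts were summed per gland, Smgc and Muc19 removed, and tested with edgeR 4.0.16 (TMM, filterByExpr, quasi-likelihood, Benjamini-Hochberg adjustment); nothing says that 2 glands shared a mouse. Alternatives used DESeq2 1.42.0 and lme4 1.1.37, other limits, and left-out glands. On simulated counts the genotype fit recovered 47.4% of genes changed by 1 on the log2 scale and 95.0% of those changed by 2, the stage fit 35.5 and 91.9%, and the sex fit 6.59 and 58.3%. No doublet caller was run. 259 Smgc-high cells (32.8%) held 5% or more acinar-list UMIs, against 39.9% of other barcodes of the 13 glands. Most acinar-list UMIs of Smgc-high cells in these glands were Pip (44526, against 5313 for Prol1 and 4635 for Car6). This count therefore does not measure doublets. Depths are in the report; p-values measure the spread between glands.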

Additional observations from a re-analysis of the deposited data

Results flagged for a closer look

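Among male glands the highest share of Smgc-high cells stood apart from the rest: 0.872% in control males, and 6.67% both in double-mutant males and in P40 males, the latter the library labelled male that held Xist. Such an outlier test was applied to 36 groups and 3 stood apart, where chance gives about 1 in 20.

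The genotype difference in the share among female glands changed between P40 and P90 by -13.0 points (exact permutation p = 0.0122, which assumes no genotype difference at either stage). Changes that differed between Smgc-high and acinar cells numbered 45 genes for genotype and 27 for stage. On the log2 scale the difference was 1.68 for Pip and -2.64 for Tesc between genotypes, and 1.85 for Insig1, -1.71 for Nupr1 and -1.62 for Ly6e between stages. Pip is on the list that chose the acinar cells, and the causes of these differences were not tested.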

How the results depend on the processing

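Without 1 gland at a time, the share differences ranged from 3.72 to 5.09 points (female minus male), 7.32 to 10.02 (controls), 0.687 to 2.32 (double mutants), -7.60 to -4.90 (double mutant minus control) and 0.489 to 3.17 (P90 minus P40), and the counts of called genes from 3 to 12 (genotype), 33 to 86 (stage), 0 to 38 (sex), 30 to 47 and 15 to 43 (interactions with acinar cells by genotype and stage). Counts were 3 without double-mutant P90 replicate 3 (genotype), and 17, 15 and 43 without control P90 replicate 1, control P90 replicate 6 and double-mutant P90 replicate 3 (stage interaction).

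Replicate numbers did not pair the glands (6 same-number pairs correlated at -0.212 to 0.0569). With the number as a replicate block the share differences keep their values, 8.76 points in controls (exact permutation p = 0.25) and -6.34 for genotype (p = 0.222, exact permutation), and within batches (8.76, p = 0.0833; -6.34, p = 0.417, both exact permutation). These designs cannot give a p under 0.25, 0.0556, 0.0833 and 0.0833 in the same order, so they could not pass and say nothing of stability. The block left 3 genotype, 17 stage and 5 sex genes. Without both libraries that go against their label the double-mutant sex difference was 2.69 and passed. Chosen after seeing the data were the splits by stage and genotype: genotype 0.155 at P40, -12.8 at P90 and -12.5 without double-mutant replicate 5, stage 9.53 in controls, -3.45 in double mutants and -3.16 without that replicate, and the genotype by stage interaction of -12.98. A binomial mixed model of the authors' kind gave log odds of 3.27 for sex and -1.79 for genotype, and turned the direction for stage, which passed in neither (-0.74, p = 0.278, against 2.11 points).

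Genotype calls were 19 with no filter on low counts, 0 with 20 or more cells per gland (89 at an unadjusted p under 0.05), 5 at equal UMIs per gland (223 genes tested, against 1045), 2 with batch and 3 in P40 glands alone; DESeq2 gave 12. Stage calls were 130 with no filter, 29 with Smgc at 10% or more, 3 at equal UMIs (223 genes) and 2 in double mutants alone. Sex calls were 5 with DESeq2 size factors, 4 with DESeq2, 24 with no filter, 4 with 20 or more cells, 1 at 10% Smgc, 0 at equal UMIs (290 genes against 1366, 28 at an unadjusted p under 0.05) and 0 without control P40 replicate 1 or double-mutant P40 replicates 2, 4 or 6 (84 to 107 at an unadjusted p under 0.05). Interaction calls were 11 with DESeq2 and 20 with no filter for genotype, and 7 with DESeq2 and 12 with both interactions in 1 model for stage. The causes were not tested. Stage is nested in batch and could not be fitted with it; with batch in place of stage, chosen after seeing the data, 2 sex genes were called, Gm11942 at 4.27 among them and Hspa5 not (-2.14, edgeR adjusted p = 0.426). No named gene changed direction: 480 values kept their side of the threshold and 147 lost it. Depth limits the genes tested to those with enough UMIs in 10 to 175 cells per gland.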
